A study of Sus scrofa with 8 samples.

Results

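The MAP kinase phosphatases are a family of enzymes that remove phosphate from both the threonine and the tyrosine of activated mitogen-activated protein (MAP) kinases and so switch these kinases off. The genes considered here are DUSP1, DUSP2, DUSP4, DUSP5, DUSP6, DUSP7, DUSP8, DUSP10, DUSP14 and DUSP16. They were chosen by name from the dual-specificity phosphatases known for acting on MAP kinases. Of these 10 genes, 9 had a row in the expression table of 18975 genes, and DUSP8 was not analysed here. All 9 passed the filter on low values, which kept 11913 genes.

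Transcripts were measured by RNA-seq in heart tissue of 6-month-old male Tibetan and Yorkshire pigs. The 4 groups were Tibetan pigs in the highland (TH) and in the lowland (TL) and Yorkshire pigs in the highland (YH) and in the lowland (YL), with the highland at 3000 m and the lowland at 100 m. Each group had 2 libraries and each library was a pool of 4 pigs, so the spread between libraries is that between pools and not between animals. No gene was altered and no agent was given in any group. The comparisons ask how the hearts of a highland breed and a lowland breed differ at each altitude, and how each breed differs between the altitudes.

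The 3 main branches of MAP kinase signalling, ERK, JNK and p38, carry growth and stress signals, and in heart muscle they act in hypertrophy and in the response to ischaemia and low oxygen. The phosphatases fall into classes by place and substrate. DUSP1, DUSP2, DUSP4 and DUSP5 are nuclear enzymes whose genes are themselves switched on by MAP kinase signalling, which closes a negative feedback loop. DUSP6 and DUSP7 are cytoplasmic and prefer ERK, DUSP10 and DUSP16 prefer JNK and p38, and DUSP14 is a small atypical member that lacks the MAP kinase-binding domain of the others.

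Reads on genes were estimated at 15.7 M to 26.7 M per library. Values are FPKM, fragment numbers divided by the transcript's length and by the library's mapped fragments. Transcripts of the mitochondrial genome took 57.71% to 87.6% of the summed FPKM of a library, with the highest share in TH1. Defining cardiomyocyte markers were abundant in every library, with 12 listed genes summing to 16700 FPKM in YL2 and to between 26300 and 44500 FPKM in the other 7. YL2 also held kidney markers, whose 14 listed genes summed to 4970 FPKM there and to at most 17.4 FPKM elsewhere. TH1 and YL2 stood apart in general, since TH1 had the lowest value of the 8 libraries in 26.7% of all tested genes and YL2 in 22.5%, and TH1 had the highest value in 24.96% and YL2 in 24.73%. The deposited descriptions of YL1 and YL2 point to the lowland Tibetan group, in conflict with their titles, and both were taken by title.

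DUSP1 (ENSSSCG00000016991, Sscrofa10.2 chr16:55768408-55771513), an inducible phosphatase that acts on p38, JNK and ERK in the nucleus, was by far the most abundant member. Its level was 171.9 and 232.2 FPKM for TH, 154.7 and 114.9 for TL, 42.68 and 60.1 for YH and 59.0 and 32.05 for YL. All 4 Tibetan libraries lay above all 4 Yorkshire libraries, and the lowest Tibetan value was 1.91 times the highest Yorkshire value. These levels rest on 1727 to 7759 reads per library, so counting error is small beside the spread between pools. The order of the group means was TH (202.0 ± 42.6, SD, n = 2), TL (134.8 ± 28.2), YH (51.4 ± 12.3) and YL (45.5 ± 19.1). The YH and YL values overlapped, TH and TL were separated by a narrow gap, and the wide step lay between the breeds.

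The breed difference of DUSP1 pointed the same way at both altitudes but did not pass the threshold for a call, which was an adjusted p under 0.01 with a log2 fold change over 1 in size. TH exceeded YH with a ratio of mean FPKM of 3.93 and a log2 fold change of 1.96 (SE 0.37), at an adjusted p of 0.0974 by limma with Benjamini-Hochberg adjustment over all tested genes. The same test gave TL over YL a ratio of 2.96 and a log2 fold change of 1.59 (SE 0.37, adjusted p = 0.271). Averaged over the altitudes, the Tibetan to Yorkshire log2 fold change was 1.78 (SE 0.26), with a ratio of 3.48 and a limma adjusted p of 0.053. That estimate stood at percentile 99.57 of all tested genes. Without YL2, the library with kidney markers, the averaged log2 fold change was 1.56 and the limma adjusted p was 0.051. Without YL1 it was 1.99 with a limma adjusted p of 0.00695, which is the only setting tried in which a member was called. Dividing each library by its FPKM sum gave 1.10 (limma adjusted p = 0.541) for the breed average and 0.96 (limma adjusted p = 0.709) for TH vs. YH. The median of all genes was then -0.38 and -0.50, so relative to it DUSP1 was 1.48 and 1.46.

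The altitude differences of DUSP1 were smaller than its breed differences in these estimates and were not called. The log2 fold change was 0.58 (SE 0.37, limma adjusted p = 0.601) for TH vs. TL and 0.21 (SE 0.37, limma adjusted p = 0.902) for YH vs. YL. The average over the breeds was 0.40 (SE 0.26, limma adjusted p = 0.807), and the test of whether the altitude difference itself differed between the breeds gave 0.37 (SE 0.52, limma adjusted p = 0.788). The YH vs. YL value turned to -0.22 without YL2 and to -0.03 without YH2. When each library was instead divided by its FPKM sum, the TH vs. TL value became -0.04 against a median of -0.27 for all genes.

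Levels of several cell type marker lists moved along with the groups. The 6 red blood cell markers summed to 3120 and 1640 FPKM for TH, 1240 and 1410 for TL, 1070 and 1030 for YH and 635 and 533 for YL, so that every Tibetan library lay above every Yorkshire library. This sum is nearly all the globins HBA and HBB, and 3 of the 5 tested markers separated the breeds, whereas ALAS2 and AHSP overlapped. The 10 listed lymphocyte markers summed to 7.83 and 8.34 FPKM for TH, 11.6 and 16.3 for TL, 32.7 and 38.2 for YH and 13.9 and 14.9 for YL, with TH lowest and YH highest. Of the 8 tested lymphocyte markers, 7 were lower in TH than in YH without overlap. CD79A overlapped between TH and YH, with a log2 fold change of 0.14 for TH vs. YH. MS4A1 and CD79B, which were not tested, overlapped between TH and YH as well. The 6 fibroblast markers summed to 192 and 632 FPKM for TH, 770 and 603 for TL, 302 and 367 for YH and 261 and 218 for YL. The 7 listed macrophage markers summed to 35.9 and 37.9 FPKM for TH and to between 47.9 and 74.2 in the other groups. Of the 6 tested macrophage markers, 4 were lower and 2 higher in TH than in YH. The 6 atrial markers summed to 6620 and 5380 FPKM in TH and to between 411 and 2610 in the other groups, a sum that is nearly all MYL7 and NPPA (4280 and 2260 FPKM in TH1), while MYL4 was lower in TH (7.59 and 6.73 FPKM) than in TL (8.85 and 21.4 FPKM). Of the 5 smooth muscle markers 4 were higher in TH than in YH without overlap. Breed differences were 1.03 for TAGLN, 0.99 for ACTA2, 1.22 for CNN1, 0.76 for DES and -0.02 for MYH11. Pearson's r with DUSP1 was 0.88, 0.74, 0.72, 0.6 and -0.04 in the same order. The sum of the 5 markers was nearly all DES, the muscle intermediate filament that cardiomyocytes also make (9130 and 5760 FPKM in TH). MYH11 was lowest in TH1 at 0.388 FPKM and had a log2 fold change of -0.88 for TH vs. YH. The part of these differences in the DUSP1 values was not tested. In bulk tissue, fewer cells of a type and less RNA per cell cannot be told apart. Among the fibroblast markers, Pearson's r with DUSP1 over the 8 libraries was 0.90 for COL1A2, 0.88 for LUM, 0.66 for COL1A1, 0.44 for COL3A1, 0.15 for PDGFRA and 0.08 for DCN. Among the endothelial markers it was 0.88 for PECAM1, 0.69 for ERG, -0.14 for VWF, -0.23 for KDR, -0.4 for EMCN and -0.48 for TEK.

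**Figure D1:**
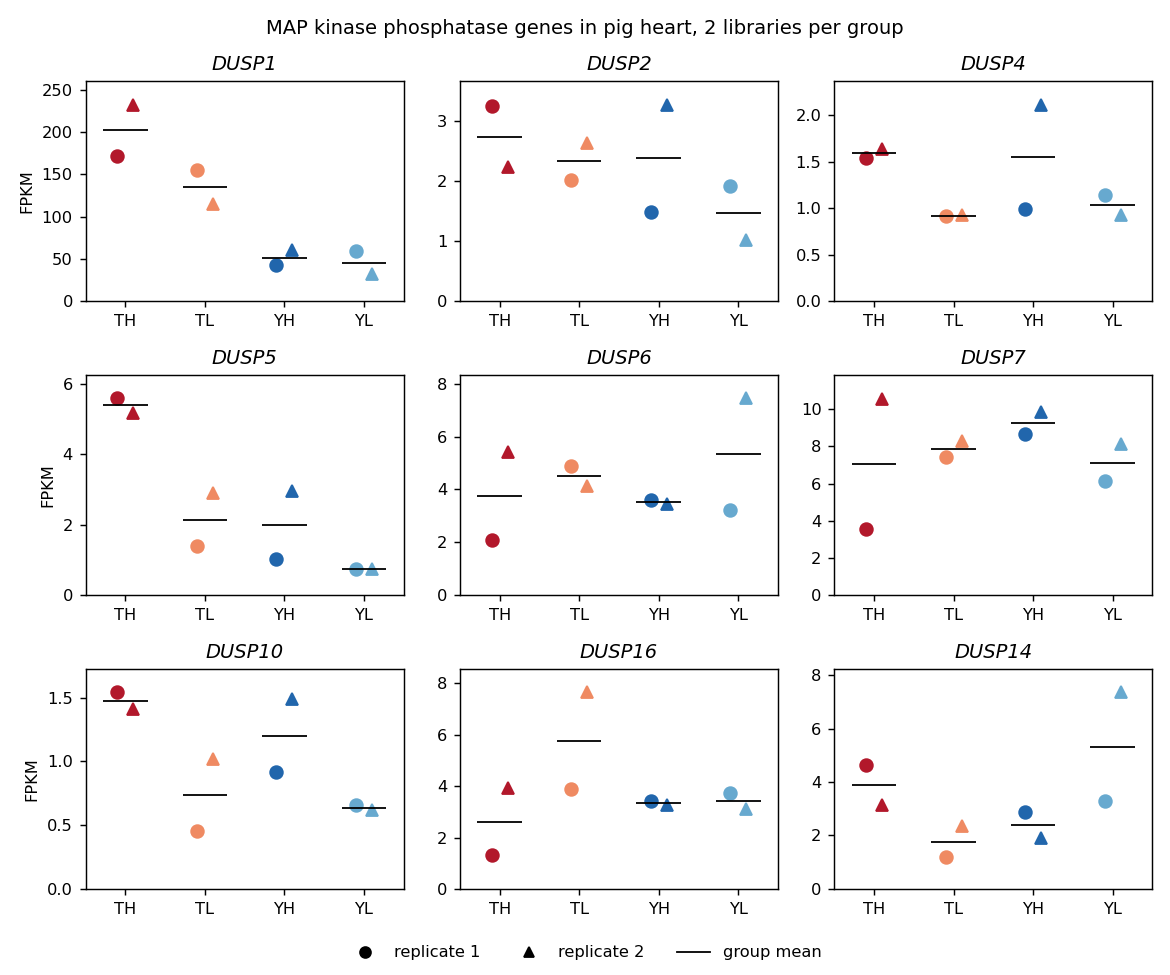
FPKM of the 9 phosphatase genes (vertical axes, each from 0) in the 4 groups (TH, TL, YH, YL), with circles and triangles for the 2 libraries of a group and bars for the group mean. DUSP1 separates the breeds, with Tibetan libraries between 114.9 and 232.2 and Yorkshire libraries between 32.05 and 60.1, whereas the other 8 members overlap between the breeds.

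DUSP5 (ENSSSCG00000010624, chr14:131791152-131804261), a nuclear phosphatase selective for ERK, showed larger differences than most members in both the breed and the altitude comparisons. Its level was 5.579 and 5.18 FPKM for TH, 1.38 and 2.885 for TL, 1.019 and 2.951 for YH and 0.7386 and 0.7265 for YL. TH was highest, YL was lowest, and TL and YH shared the middle range. The ratio of mean FPKM was 2.71 for TH vs. YH, with a log2 fold change of 1.17 (SE 0.37, limma adjusted p = 0.22). For TH vs. TL the ratio was 2.52 and the log2 fold change 1.07 (SE 0.37, limma adjusted p = 0.353). In each of the 4 comparisons between 2 groups the DUSP5 values of the groups did not overlap, and DUSP5 was higher in Tibetan than in Yorkshire pigs and in highland than in lowland pigs. None of these differences was called. The TH vs. YH value fell to 0.69 without YH1 and the TH vs. TL value to 0.71 without TL1. They were 0.26 and 0.37 when each library was divided by its FPKM sum, or 0.76 and 0.64 relative to the median of all genes under that scaling. These are low levels, with 29 to 244 reads per library, and adding 1 to each FPKM value before the logarithm shrinks the fold change.

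DUSP2 (ENSSSCG00000008128, chr3:49192956-49195006), an inducible nuclear phosphatase best known from immune cells, measured 3.238 and 2.232 FPKM for TH, 2.023 and 2.624 for TL, 1.491 and 3.267 for YH and 1.908 and 1.026 for YL. Its highest and a low value were both in YH, where the libraries differed by a factor of 2.19, and of the 4 comparisons between 2 groups only TL vs. YL had no overlap. DUSP4 (ENSSSCG00000015850, chr15:62906028-62923416), an inducible nuclear phosphatase close to DUSP1, measured 1.542 and 1.632 FPKM for TH, 0.9201 and 0.9214 for TL, 0.9899 and 2.111 for YH and 1.143 and 0.9277 for YL. The 2 TH libraries and the 2 TL libraries of DUSP4 each lay close together with TH above TL, while YH held the highest value and the 2 YH libraries lay far apart.

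Of the cytoplasmic members, DUSP7 (ENSSSCG00000011430, chr13:37397827-37403141) was the second most abundant of all members on the FPKM scale. It measured 3.569 and 10.58 FPKM for TH, 7.423 and 8.318 for TL, 8.663 and 9.871 for YH and 6.152 and 8.111 for YL. Both extremes fell within TH, where TH2 was 2.97 times TH1, and the exact Poisson 95% interval of TH1, 2.793 to 4.495, did not reach the next lowest library. DUSP6 (ENSSSCG00000022284, unplaced scaffold GL894700.2, 52267 to 55482), the feedback phosphatase of ERK signalling, measured 2.082 and 5.422 FPKM for TH, 4.875 and 4.145 for TL, 3.6 and 3.451 for YH and 3.231 and 7.44 for YL. TH1 was again lowest and YL2, the library with kidney markers, was highest, so TH and YL held the full range while TL and YH each stayed narrow. Such intervals cover counting error only.

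DUSP10 (ENSSSCG00000010831, chr10:12977460-13015992), a phosphatase of JNK and p38, was the least abundant member. It measured 1.542 and 1.409 FPKM for TH, 0.4555 and 1.017 for TL, 0.9171 and 1.487 for YH and 0.657 and 0.6154 for YL. Within each breed both highland libraries lay above both lowland libraries, but YH1 lay below TL2, so highland and lowland overlapped over all 8 libraries. DUSP16 (ENSSSCG00000023063, unplaced scaffold GL895707.1, 5725 to 7820), a phosphatase of JNK that shuttles between nucleus and cytoplasm, is annotated over only 2096 bp. It measured 1.31 and 3.936 FPKM for TH, 3.88 and 7.653 for TL, 3.418 and 3.273 for YH and 3.739 and 3.122 for YL. The Yorkshire libraries were closely grouped, whereas the TH1 value rested on 19 reads (exact Poisson 95% interval 0.789 to 2.045 FPKM) and TL2 stood far above the rest.

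DUSP14 (ENSSSCG00000029874, chr12:40507754-40616164) moved in opposite directions in the 2 breeds. It measured 4.644 and 3.139 FPKM for TH, 1.189 and 2.342 for TL, 2.893 and 1.901 for YH and 3.276 and 7.364 for YL. TH exceeded TL and YL exceeded YH, without overlap in either breed. TL was lower than YL by a log2 fold change of -1.14 (SE 0.39, limma adjusted p = 0.45). The difference between the altitude effects of the breeds was 1.67 on the log2 scale (SE 0.56, limma adjusted p = 0.38), which was not called. Leaving out YL2, the highest library, lowered it to 1.19 (limma adjusted p = 0.377), and leaving out YL1 raised it to 2.15 (limma adjusted p = 0.0511). The TL vs. YL value was -0.66 (limma adjusted p = 0.659) without YL2 and -1.63 (limma adjusted p = 0.0452) without YL1. The DUSP14 row has the same locus as 2 other rows, TADA2A and ENSSSCG00000017697, so reads could be split between them and its level is uncertain. TADA2A, a subunit of histone acetyltransferase complexes, measured 1.94 and 3.42 FPKM for TH, 1.76 and 2.47 for TL, 3.91 and 3.6 for YH and 2.19 and 2.84 for YL, with YH above YL.

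Summed over the 9 genes, the family reached 195.41 and 265.72 FPKM for TH, 176.87 and 144.76 for TL, 65.67 and 88.42 for YH and 79.84 and 61.38 for YL. DUSP1 made up 79.34% to 87.97% of this sum in the Tibetan libraries and 52.21% to 73.89% in the Yorkshire libraries. The other 8 genes together held 20.84 to 33.54 FPKM, and here the breeds overlapped. DUSP1 ranked from 278 in TH2 to 1574 in YL2 among the 11913 tested genes.

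**Figure D2:**
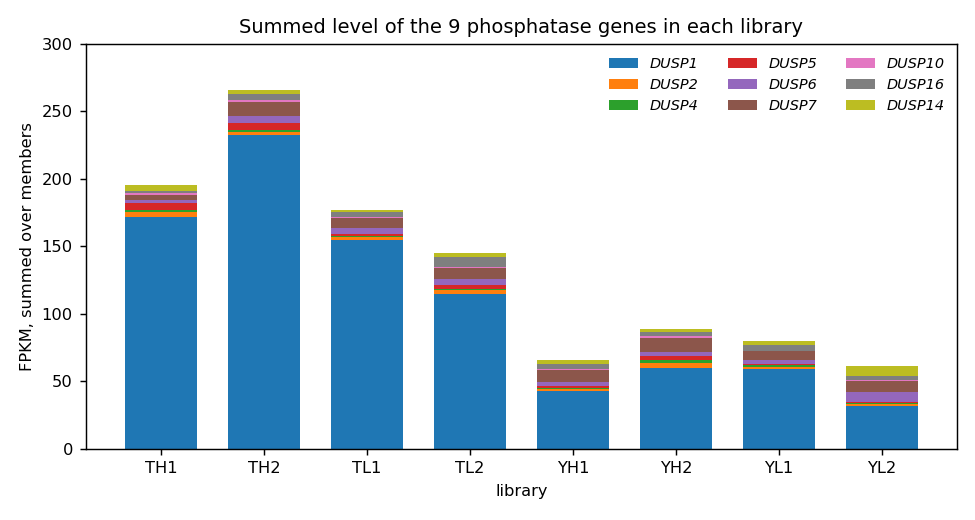
Summed FPKM (vertical axis, from 0) of the 9 genes in each of the 8 libraries, with 1 colour per gene. DUSP1 fills 52.21% to 87.97% of each bar, and the Tibetan bars, from 144.76 to 265.72 FPKM, are all taller than the Yorkshire bars, from 61.38 to 88.42 FPKM.

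No member was called by limma in any of the 7 comparisons, where calls were rare among all genes as well. For TH vs. YH, 0.0336% of tested genes were called, and 2 of the 9 members, DUSP1 and DUSP5, had an unadjusted p under 0.05 against 16.2% of all genes. For TL vs. YL, 0.00839% were called, and DUSP1 and DUSP14 had such a p against 8.94%. For TH vs. TL, 0.0504% were called, with DUSP5 below an unadjusted 0.05 against 11.3% of all genes. For YH vs. YL, 0.0% were called and no member was below an unadjusted 0.05, as against 5.97%. For the breed average, 0.0504% were called and DUSP1 and DUSP5 were below, against 13.5%. For the altitude average, 0.0336% were called and DUSP5 and DUSP10 were below, against 7.22%. For the difference of differences, 0.0336% were called and DUSP14 was below, against 10.9%.

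Groups of 2 libraries often failed to overlap by themselves, and the members' counts are read against that share. TH and YH did not overlap in 3 members (DUSP1, DUSP5 and DUSP14, all higher in TH), a separation found in 52.5% of all tested genes and in this direction in 25.2%. TL and YL did not overlap in 6 members, with DUSP1, DUSP2, DUSP5 and DUSP16 higher and DUSP4 and DUSP14 lower in TL, as in 41.5% of genes. TH exceeded TL without overlap in 5 members (DUSP1, DUSP4, DUSP5, DUSP10 and DUSP14), as in 24.0% of genes, and 48.5% of genes did not overlap in either direction. YH and YL did not overlap in 4 members, with DUSP5, DUSP7 and DUSP10 higher and DUSP14 lower in YH, as in 36.3% of genes. With 4 libraries on each side, DUSP1 was the only member that separated the breeds, a pattern found in 8.03% of genes, and no member separated the altitudes, which 2.69% of genes did.

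**Figure D3:**
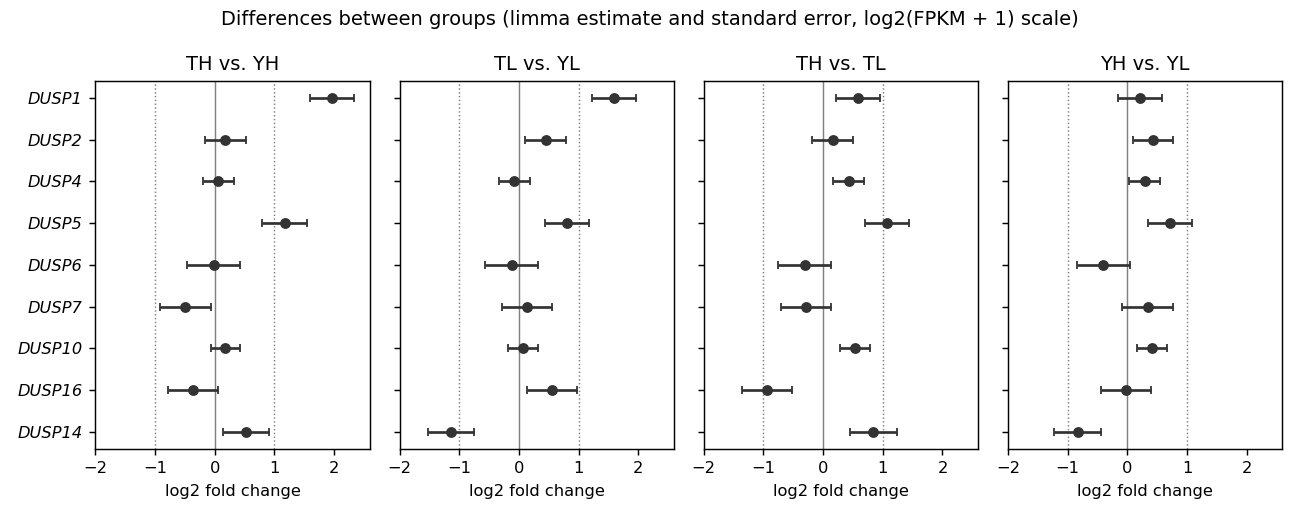
Log2 fold change of each member (horizontal axes, on the log2(FPKM + 1) scale) in the 4 comparisons of 2 groups, with points for the limma estimate, bars for its standard error, a solid line at 0 and dotted lines at 1 and -1. DUSP1 lies past 1 in both breed comparisons (1.96 and 1.59), and DUSP14 at -1.14 in TL vs. YL is the lowest value shown.

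The median of the members lay above that of all tested genes in each comparison of 2 groups. The members' median log2 fold change was 0.18 for TH vs. YH, 0.13 for TL vs. YL, 0.43 for TH vs. TL and 0.29 for YH vs. YL, where the median of all tested genes was -0.03, 0.02, -0.02 and 0.03. Members other than those given with their own fold change lay between -0.49 and 0.52 for TH vs. YH, -0.12 and 0.81 for TL vs. YL, -0.94 and 0.84 for TH vs. TL, and -0.83 and 0.71 for YH vs. YL. For the averaged breed difference the other 8 members lay between -0.31 and 0.99, the upper end being DUSP5 (limma adjusted p = 0.186). For the averaged altitude difference they lay between -0.48 and 0.89, again with DUSP5 at the upper end (limma adjusted p = 0.534).

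The spread between the pools of a group was wider for most members than for a typical gene. The within-group SD on the log2 scale was 0.41 for DUSP1, 0.425 for DUSP5, 0.519 for DUSP6, 0.497 for DUSP7, 0.491 for DUSP16 and 0.46 for DUSP14, where the median of all tested genes was 0.298. Only DUSP4 (0.235) and DUSP10 (0.215) were tighter, both at levels near 1 FPKM where the added pseudocount compresses differences. Extreme values were unevenly placed over the libraries, as they were over all tested genes. TH1 was lowest in DUSP6, DUSP7 and DUSP16 and highest in DUSP5 and DUSP10. YL2 was lowest in DUSP1, DUSP2 and DUSP5 and highest in DUSP6 and DUSP14. Of all tested genes, TH1 was lowest in 26.7% and highest in 24.96%, and YL2 in 22.5% and 24.73%. TL1 was lowest in DUSP4, DUSP10 and DUSP14, although it was lowest in only 6.61% of all tested genes. For DUSP4 this was a near tie, with TL1 at 0.9201, TL2 at 0.9214 and YL2 at 0.9277 FPKM. TH2 was highest in DUSP1 and DUSP7, YH2 in DUSP2 and DUSP4, and TL2 in DUSP16.

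Across the 8 libraries, Pearson's r of log2 values between the inducible nuclear members ran from 0.26 for DUSP1 and DUSP4 to 0.78 for DUSP2 and DUSP5, with 0.77 for DUSP1 and DUSP5. The cytoplasmic DUSP6 and DUSP7 had an r of 0.65, and pairs of a nuclear and a cytoplasmic member ran from -0.69 for DUSP2 and DUSP6 to 0.06 for DUSP4 and DUSP7. The highest values of all pairs joined DUSP10 to nuclear members, at 0.86 with DUSP5 and 0.82 with DUSP4, and DUSP7 and DUSP16 had an r of 0.64. Within each of the 8 libraries both genes of a pair share its depth and pool composition, and these correlations were not tested.

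DUSP1 is itself an immediate early gene, a class transcribed within minutes of a stimulus without new protein synthesis. Of a list of 26 such genes, 18 were tested, and all 18 had a higher estimate in TH than in YH and in TL than in YL. The list median was 1.67 for TH vs. YH and 1.47 for TL vs. YL, and in each of these comparisons 16 of the 18 had all libraries of the Tibetan group above those of the Yorkshire group, as did 25.2% and 23.8% of all tested genes. Over both altitudes, 11 of the 18 separated the breeds in this direction, as did 4.57% of genes. Between altitudes, the estimates were mixed, with 11 higher and 7 lower in TH than in TL and 13 higher and 5 lower in YH than in YL. The list was chosen with earlier results of these data known, so its direction is no independent evidence.

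The early gene that passed the call threshold for the averaged breed difference was FOS, a subunit of the AP-1 transcription factor. FOS measured 53.8 and 85.5 FPKM for TH, 50.9 and 42.0 for TL, 3.4 and 5.91 for YH and 4.3 and 5.98 for YL. The 4 Tibetan libraries lay far above the 4 Yorkshire libraries, with a log2 fold change of 3.30 (SE 0.24, limma adjusted p = 0.00552). EGR1, ATF3, NR4A1, CYR61 and CTGF also had an adjusted p under 0.05 in this comparison, as did 0.47% of all genes, with log2 fold changes from 1.91 for CYR61 to 3.30 for ATF3. Pearson's r with DUSP1 over the 8 libraries was 0.96 for EGR2 and CYR61, 0.94 for FOS and 0.92 for BTG2, and it was 0.33 for GADD45B, whose breed difference was 0.19.

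**Figure D4:**
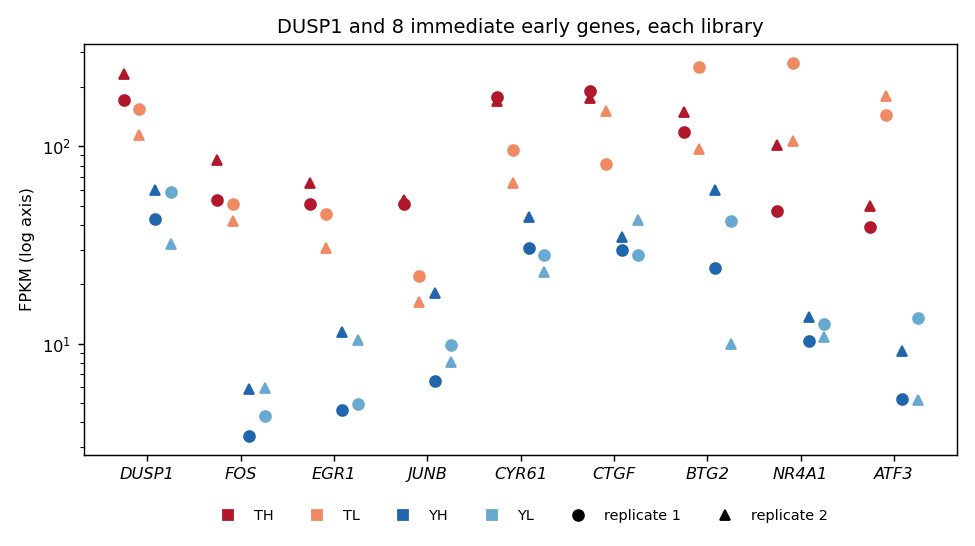
FPKM (vertical log axis) of DUSP1 and of 8 immediate early genes chosen for display after their values were seen, with colours for the groups and symbols for the 2 libraries of a group. For DUSP1 the Tibetan libraries (114.9 to 232.2) lie above the Yorkshire libraries (32.05 to 60.1), and for FOS the gap is wider (42.0 to 85.5 against 3.4 to 5.98).

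The kinases that these phosphatases act on were not called in any comparison by limma, and none had an unadjusted p under 0.05. Of a list of 13 MAP kinases, 7 were tested, and their median log2 fold change was -0.23 for TH vs. YH, 0.12 for TL vs. YL and -0.01 for the breed average. Abundant members included MAPK12, a p38 isoform of striated muscle, at a mean of 63.8 FPKM, MAPK3 (ERK1) at 16.7 and MAPK14 (p38α) at 16.5. Their breed differences were 0.23, 0.27 and -0.01, with limma adjusted p values from 0.447 to 0.982. None of the 8 tested upstream kinases, led by ARAF and MAP2K2, and none of the 10 tested MAPK-activated kinases, led by MAPKAPK2 and MKNK2, was called by limma, 1 of each list had an unadjusted p under 0.05 for the breed average, as did 13.5% of all genes, and their median breed differences were 0.02 and 0.21. In the other comparisons at most 2 of the MAPK-activated kinases (TH vs. TL) and none of the upstream kinases had such a p. For TH vs. TL the share of all genes was 11.3%. The Sprouty and SPRED proteins, feedback inhibitors of the ERK branch, had 5 tested genes, none called and none with an unadjusted p under 0.05, with a median breed difference of 0.04.

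Phosphatases other than the members were not called either. Of 11 tested dual-specificity phosphatases beside the members, none was called in any comparison by limma and 1 had an unadjusted p under 0.05 for the breed average, and the median breed difference was 0.05. There were 2 below an unadjusted 0.05 in each of TH vs. YH, TH vs. TL and the altitude average, against 16.2%, 11.3% and 7.22% of all genes. DUSP13, an atypical phosphatase of muscle and testis, had a log2 fold change of 2.22 for TH vs. TL (limma adjusted p = 0.213) and 2.16 for the difference of differences (limma adjusted p = 0.371), both larger than any member's. The most abundant were DUSP26, at a mean of 90.3 FPKM, and DUSP3, at 57.4 FPKM, with breed differences of 0.05 and -0.08 (limma adjusted p = 0.951 and 0.889), and DUSP26 had 1.07 for TH vs. TL (limma adjusted p = 0.421). DUSP9, a cytoplasmic MAP kinase phosphatase known from placenta and kidney, was listed at 15.6 FPKM in YL2 and at no more than 0.024 FPKM in the other libraries, and was not tested. Of 5 tested phosphatases of other families that act on MAP kinases, none was called by limma, and 3 had an unadjusted p under 0.05 for TH vs. YH, as did 16.2% of all genes. There were 2 below it in each of YH vs. YL, the breed average and the difference of differences, against 5.97%, 13.5% and 10.9% of all genes. The median log2 fold change of the 5 was -1.18 for TH vs. YH and -1.51 for the difference of differences. PTPN7, a tyrosine phosphatase of blood cells, had -1.18 (limma adjusted p = 0.0983) and PPM1B, a metal-dependent phosphatase, -1.49 (limma adjusted p = 0.245) for TH vs. YH. PPM1A, a close relative of PPM1B, had a log2 fold change of -1.73 for TH vs. YH (limma adjusted p = 0.14) and of -0.17 for TL vs. YL (limma adjusted p = 0.935). PPP2CB, the most abundant of the 5 at a mean of 90.9 FPKM, had -0.68 for TH vs. YH, and PPM1D had 0.02. PTPN7 was low, at 0.382 and 0.403 FPKM for TH.

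Genes with log2 values closest to those of the 3 members with the highest mean level were sought over the 8 libraries. Only tested genes of at least 10 FPKM on average were searched, and the 5 closest are given. For DUSP1, compared with 4160 genes, these were CCDC80, a secreted matrix protein (r = 0.987), THY1, a surface glycoprotein of fibroblasts and other cells (r = 0.979), LPCAT4 (r = 0.974), and the tubulin genes TUBB (r = 0.966) and TUBA1B (r = 0.963). TUBB measured 326 and 335 FPKM for TH, 220 and 196 for TL, 106 and 143 for YH and 166 and 102 for YL, again with every Tibetan library above every Yorkshire library. For DUSP7 the closest were ENSSSCG00000011227 (r = 0.994), TGFBR2, a receptor of transforming growth factor beta (r = 0.982), EIF4G2 (r = 0.978), NCKAP1 (r = 0.971) and SURF4 (r = 0.962). All 5 had their lowest value in TH1, as DUSP7 did. For DUSP6 they were NAA60 (r = 0.955), EPB41L3 (r = 0.953), OTUD5 (r = 0.932), ADD1 (r = 0.926) and CRTAP (r = 0.916), and all but CRTAP had their highest value in YL2, where DUSP6 was highest.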

How the data were processed

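Per the methods of the study, the authors mapped reads with TopHat 2.0.9 to the pig build Sscrofa10.2, obtained FPKM from Cufflinks and called differential genes with DESeq 1.10.1. The deposited table holds 1 FPKM value per gene and library and a second value named a count, in fact a signal of reads times a factor per library. From 99.75% to 99.9% of low signal values were within 0.1 of a whole multiple of 1 step, but 7 columns also held smaller values, so no count test was run, and that signal served only for read numbers, their exact Poisson 95% intervals and an added alternative.

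Group means were fitted to log2(FPKM + 1) over all 8 libraries with limma 3.58.1 (R 4.3.3) with a variance trend, for 11913 genes that reached 1 FPKM in 2 or more libraries. P values were two-sided and adjusted over all tested genes by Benjamini-Hochberg. The script was tested on simulated data. All members are given by library. Fold changes are given for DUSP1 throughout and for other members past 1 in size or with an adjusted p under 0.05, and pathway genes are named where called or among the 4 highest in mean FPKM, other named genes having been chosen after their values were seen. A pathway gene that this rule names is not reported here. The members and lists were chosen with earlier results of these data known. Columns of group means and ratios (8) and 4 files repeating the table were not used. The labels do not say that replicates are separate herds or batches, so p values measure only the spread between pools.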

Additional observations from a re-analysis of the deposited data

Results flagged for a closer look

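DUSP14 was singled out because the 2 breeds moved in opposite directions between the altitudes, with every TH library above every TL library and every YH library below every YL library. Read the other way, every TH library lay above every YH library and every TL library below every YL library. Both views give the same difference of 1.67 on the log2 scale, and its limma test was not passed (adjusted p = 0.38). The patterns themselves carry no test of their own and were seen in 11.3% and 9.9% of all tested genes.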

How the results depend on the processing

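Over 11 fold changes of DUSP1, DUSP5 and DUSP14, 184 of 190 alternative values kept the direction and the side of the call threshold, 5 reversed and 1 passed it. No member was called in the main fit, so a value that kept both was only of the same sign and still not called. Its size could change much. With each library left out in turn, its partner being assumed to vary like the other groups, the number of members called for the breed average ranged from 0 to 1, and DUSP1 ranged from 1.56 to 1.99 there, passing only without YL1 (adjusted p = 0.00695), from -0.22 to 0.64 for YH vs. YL and from -0.06 to 0.80 for the difference of differences. Dividing by the FPKM sum took the median of all genes for TH vs. YH from -0.03 to -0.50 and gave DUSP1 0.96 there, 1.10 for the breed average, -0.04 for TH vs. TL and -0.27 for the difference of differences. Relative to the median of all genes under that scaling these were 1.46, 1.48, 0.23 and -0.01. In the main fit they were 1.99, 1.79, 0.6 and 0.38 relative to the median. This scaling gave 2 of the 5 reversals, and relative to the median the difference of differences stayed negative. Over all alternatives the limma adjusted p of DUSP1 ranged from 0.00695 to 0.541 for the breed average, from 0.046 to 0.709 for TH vs. YH and from 0.0213 to 1.0 for TL vs. YL. The cause was not tested.

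With the replicate number as a block, the DUSP1 breed average was 1.78 (limma adjusted p = 0.102) and no call changed. Correlations over all genes of the replicate deviations between groups ran from -0.084 to 0.118. They show no general pairing by number but cannot exclude one that affects only some genes. A fit to log2 of the scaled reads plus 1, chosen after seeing the data, gave 1.73 (limma adjusted p = 0.0487). The planned edgeR and DESeq2 fits were not run because whole reads were not recovered in 7 of 8 columns. With a mean filter of 10 FPKM, DUSP1 was the only member fitted. Each group had 2 pools, and TH1 and YL2 lay apart from the rest. The lowest library of each member but DUSP1 held 19 to 102 reads. Small differences were therefore not detectable, and large ones could also miss a call. For TH vs. YH, FOS had a log2 fold change of 3.64 (limma adjusted p = 0.0201) and was not called. The atrial marker NPPA had 5.53 (limma adjusted p = 0.0448) and was not called either.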
